A study of Mus musculus with 8 samples.

Results

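Txnip, Glrx and Ggct are 3 genes of thiol redox control, and they were examined through the 4 probe sets that carry their symbols in the authors' deposited comparison. A probe set is a group of short probes on the array that together report 1 signal for a transcript. Txnip had 2 probe sets, a brighter one (1415996_at) and a dimmer one (1415997_at), Glrx had 1 (1416593_at) and Ggct had 1 (1435695_a_at), out of 45101 on each array. That comparison lists 330 probe sets and names 247 genes through them, and these 3 are among them. It was selected by the study on the genotype contrast described here. The difference between the genotypes in these genes is therefore given as a description, with no test.

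The arrays came from forebrain dissected from mouse embryos at E9.5, which is day 9.5 of gestation. Of the 8 arrays, 4 were from VEGF120 embryos and 4 from wild type embryos, both on a C57Bl/6 background. The VEGF120 allele is a knock-in of VEGF120 cDNA into the VEGF-A gene, so that VEGF120 is the sole isoform made and VEGF164 and the other isoforms are missing. The knock-in is carried by the whole animal rather than by 1 cell type of the brain. The labels name no drug or other treatment, and they do not say whether an array held 1 embryo or a pool, so the spread between arrays may be technical in part. In whole forebrain, fewer cells of a type and less RNA per cell cannot be told apart.

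Thioredoxin and glutaredoxin are small proteins that reduce disulfide bonds in other proteins, and they draw their electrons from NADPH, the second of them by way of the tripeptide glutathione. Txnip binds reduced thioredoxin and restrains it. It is also an alpha-arrestin that lowers glucose uptake, and its transcription follows the supply of glucose through the factors MondoA and ChREBP. Glrx is glutaredoxin 1, the cytosolic enzyme that removes glutathione from protein cysteines, and Ggct is gamma-glutamylcyclotransferase, which acts in the breakdown of gamma-glutamyl compounds and releases 5-oxoproline.

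The sequences before the 3 genes' starts are shown because all 3 genes were lower in VEGF120, and because the upstream region of Txnip holds a pair of boxes with the spacing of a carbohydrate response element, through which glucose acts on this gene. They come from RefSeq on build GRCm38.p6, and all 3 genes were matched by symbol. Txnip lies on chromosome 3 (96557957 to 96561857), Glrx on chromosome 13 (75839885 to 75850151) and Ggct on chromosome 6 (54985095 to 54992960). The printed stretches are chr3:96557707-96557956 on the plus strand, chr13:75839635-75839884 on the plus strand and chr6:54992961-54993117 on the minus strand, each read 5′ to 3′ along its gene. The Ggct stretch is the shortest, since it stops where the annotated gene begins, which lies upstream of the start on which the table's window was set. Capitals mark CCAAT boxes on either strand and, in Txnip, the paired boxes.
Txnip: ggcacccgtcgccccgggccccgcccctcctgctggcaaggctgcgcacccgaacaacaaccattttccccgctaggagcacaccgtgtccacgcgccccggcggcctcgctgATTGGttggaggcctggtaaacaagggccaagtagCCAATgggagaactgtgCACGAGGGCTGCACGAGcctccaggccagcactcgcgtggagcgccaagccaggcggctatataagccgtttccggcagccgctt
Glrx: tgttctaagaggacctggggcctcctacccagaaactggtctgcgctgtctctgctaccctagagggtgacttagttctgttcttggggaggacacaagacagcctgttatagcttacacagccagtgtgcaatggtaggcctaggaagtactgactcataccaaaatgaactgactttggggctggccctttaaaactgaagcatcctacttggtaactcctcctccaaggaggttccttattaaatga
Ggct: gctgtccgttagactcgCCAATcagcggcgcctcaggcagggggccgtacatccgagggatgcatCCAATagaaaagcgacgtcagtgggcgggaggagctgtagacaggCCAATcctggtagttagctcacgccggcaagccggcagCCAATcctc

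The paired boxes were searched as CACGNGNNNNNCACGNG on both strands in the 250 bases before the start of 27025 genes. Txnip was 1 of 14 genes with a match, or 0.0518%, and its matched letters were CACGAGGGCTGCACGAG, from 85 to 69 bases before the start. Glrx and Ggct had no match. None of the other 13 genes is named in the authors' deposited table. That table names only 247 genes, so nothing is read from this count. CCAAT was searched on both strands as well, and it was found in 34.5% of the 27025 upstream regions. Txnip had 2 matches, Ggct had 4 and Glrx had 0. The core of the antioxidant response element, searched as TGACNNNGC, occurred in 10.1% of regions, and of the 3 genes Ggct alone held it, with 1 match on the reverse strand. The E-box CACGTG occurred in 6.05% of regions, ACGTG, the core of the hypoxia response element, in 16.6%, and none of the 3 genes held either of these in its window. CACGTG contains ACGTG, so those matches overlap. A match describes letters and does not show that a factor binds there.

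All 4 probe sets were lower in VEGF120 than in wild type forebrain, as were 42.8% of all probe sets above the brightness filter. Mean signal in VEGF120 was 46.2% to 69.2% of that in wild type. The values are MAS5 signals, which the authors computed per probe set on a linear scale and scaled to the same trimmed mean on every array. Differences between the genotypes are on the scale of log2(signal + 16), on which the change of a dim probe set comes out too small. Their standard errors come from limma fitted to 27022 probe sets.

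The brighter Txnip probe set read 174, 307, 142 and 231 on VEGF120 replicates 1 to 4, against 377, 350, 287 and 326 on wild type replicates 1 to 4 (signal). On this probe set 3 of the 4 VEGF120 arrays lay below every wild type array, and VEGF120 replicate 2 lay above wild type replicate 3, so the genotypes overlapped. The means were 213 ± 72.3 in VEGF120 and 335 ± 38.3 in wild type (SD, n = 4 each), a log2 difference of −0.66 ± 0.20 (SE), or 1.58-fold lower.

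The dimmer Txnip probe set read 20.9, 105, 50.9 and 59.6 on VEGF120 replicates 1 to 4, against 89.0, 118, 130 and 175 on wild type replicates 1 to 4 (signal). The same array, VEGF120 replicate 2, was again the exception, above wild type replicate 1 and no other. The other 3 VEGF120 arrays lay below every wild type array. The means were 59.1 ± 34.8 in VEGF120 and 128 ± 35.6 in wild type (SD, n = 4 each), and the log2 difference was −1.03 ± 0.31 (SE), or 2.04-fold lower. With an added value of 64 this difference was −0.67, and the probe set was the dimmest of the 4, at percentile 57.8 of brightness.

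The Txnip probe sets ranked the arrays much alike in VEGF120 but nearly in reverse in wild type. In VEGF120, replicate 2 was highest and replicate 4 next on both, and replicates 1 and 3 changed places. In wild type the order from high to low was replicates 1, 2, 4, 3 on the brighter and 4, 3, 2, 1 on the dimmer. Within wild type the highest signal was 1.32 times the lowest on the brighter and 1.96 times on the dimmer. Within VEGF120 the ratio was 2.16 on the brighter and 5.02 on the dimmer. The 5.02 rests on replicate 1, whose signal of 20.9 lies below the filter signal of 36.9, and without that array the ratio on the dimmer was 2.06. The difference in spread between the genotypes was not tested.

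Glrx, the enzyme that strips glutathione from proteins, read 180, 240, 164 and 115 on VEGF120 replicates 1 to 4, against 250, 179, 297 and 282 on wild type replicates 1 to 4 (signal). The genotypes overlapped through wild type replicate 2 alone, which lay just below VEGF120 replicate 1 and further below VEGF120 replicate 2. VEGF120 replicate 2 was close to wild type replicate 1 but below it. The means were 175 ± 51.4 in VEGF120 and 252 ± 52.6 in wild type (SD, n = 4 each), with a log2 difference of −0.51 ± 0.21 (SE), or 1.42-fold lower.

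Ggct, of glutathione turnover, was the one gene whose arrays did not overlap. It read 218, 166, 168 and 202 on VEGF120 replicates 1 to 4, against 256, 262, 304 and 271 on wild type replicates 1 to 4 (signal). Every VEGF120 array lay below every wild type array, and the closest pair was VEGF120 replicate 1 and wild type replicate 1. The means were 189 ± 25.5 in VEGF120 and 273 ± 21.5 in wild type (SD, n = 4 each), a log2 difference of −0.51 ± 0.14 (SE), or 1.42-fold lower. The change of Ggct was thus of the size of that of Glrx but came with a smaller spread between arrays.

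**Figure D1:**
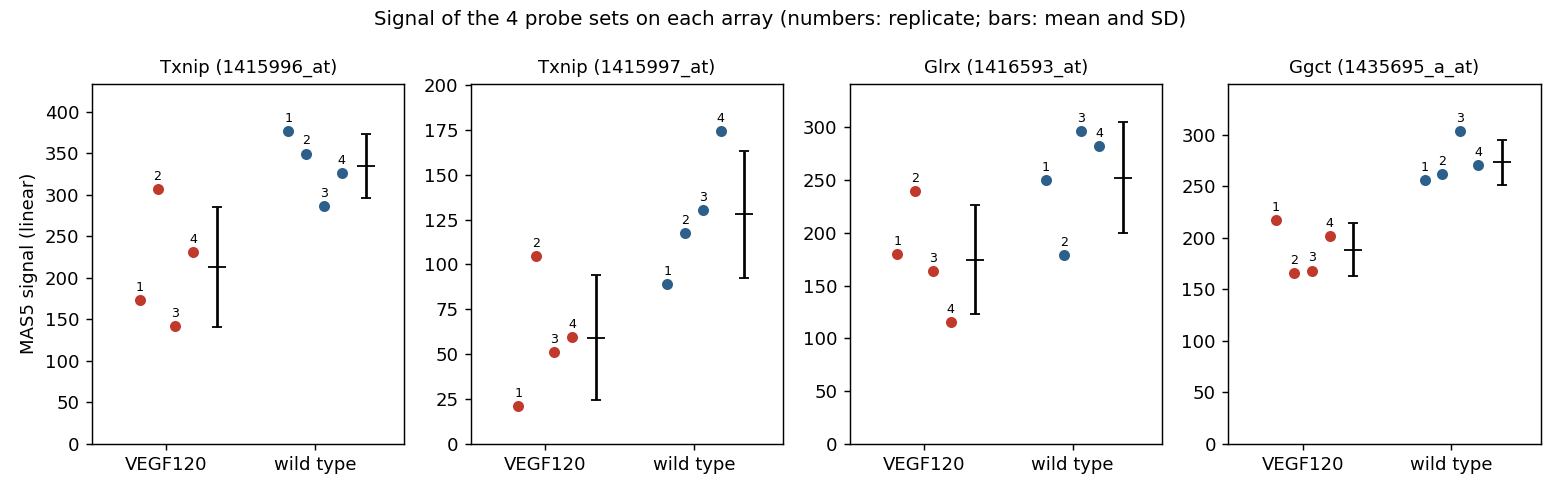
MAS5 signal (linear axis from 0) of each probe set on the 4 VEGF120 and the 4 wild type arrays, with the replicate number at each point and the mean ± SD beside each group. Ggct is the one gene whose groups are apart, and VEGF120 replicate 2 reaches the wild type range for both Txnip probe sets and for Glrx.

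VEGF120 replicate 2 read differently for these genes. Relative to each probe set's wild type mean it stood at 91.6% and 82.0% for the brighter and the dimmer Txnip probe set and 95.1% for Glrx, but at 60.8% for Ggct, where it was the lowest of all 8 arrays. VEGF120 replicate 3 stood at 42.3% and 39.8% for Txnip, 65.0% for Glrx and 61.6% for Ggct. VEGF120 replicate 4 stood at 68.9% and 46.6% for Txnip, 73.9% for Ggct and 45.7% for Glrx, which was lowest there. The dimmer Txnip probe set was lowest on VEGF120 replicate 1, at 16.3%. The genes thus did not share an order of arrays. They were selected as lower in VEGF120, so their shared direction was largely fixed in advance and nothing is read from it.

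**Figure D2:**
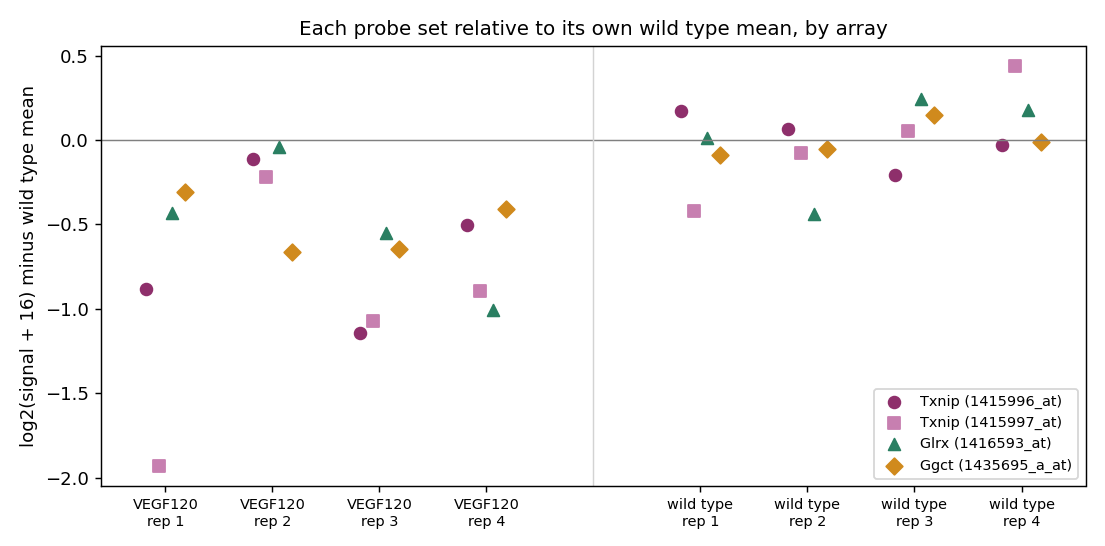
log2(signal + 16) of each probe set minus its own wild type mean, by array, with a symbol per probe set. All 16 VEGF120 points of these probe sets, which were selected as lower, lie below 0. On VEGF120 replicate 2 the points of Txnip and Glrx lie near 0 while that of Ggct is its lowest.

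Without VEGF120 replicate 2 the log2 differences were −0.84 for the brighter and −1.30 for the dimmer Txnip probe set, −0.66 for Glrx and −0.45 for Ggct. Without VEGF120 replicate 4 that of Glrx was −0.34, and without VEGF120 replicate 1 that of the dimmer Txnip probe set was −0.73. Other scalings moved all 4 further down. After quantile normalization the differences were −0.72 and −1.13 for Txnip, −0.58 for Glrx and −0.56 for Ggct, and with each array centred on its median they were −0.78, −1.15, −0.63 and −0.63 in the same order.

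**Figure D3:**
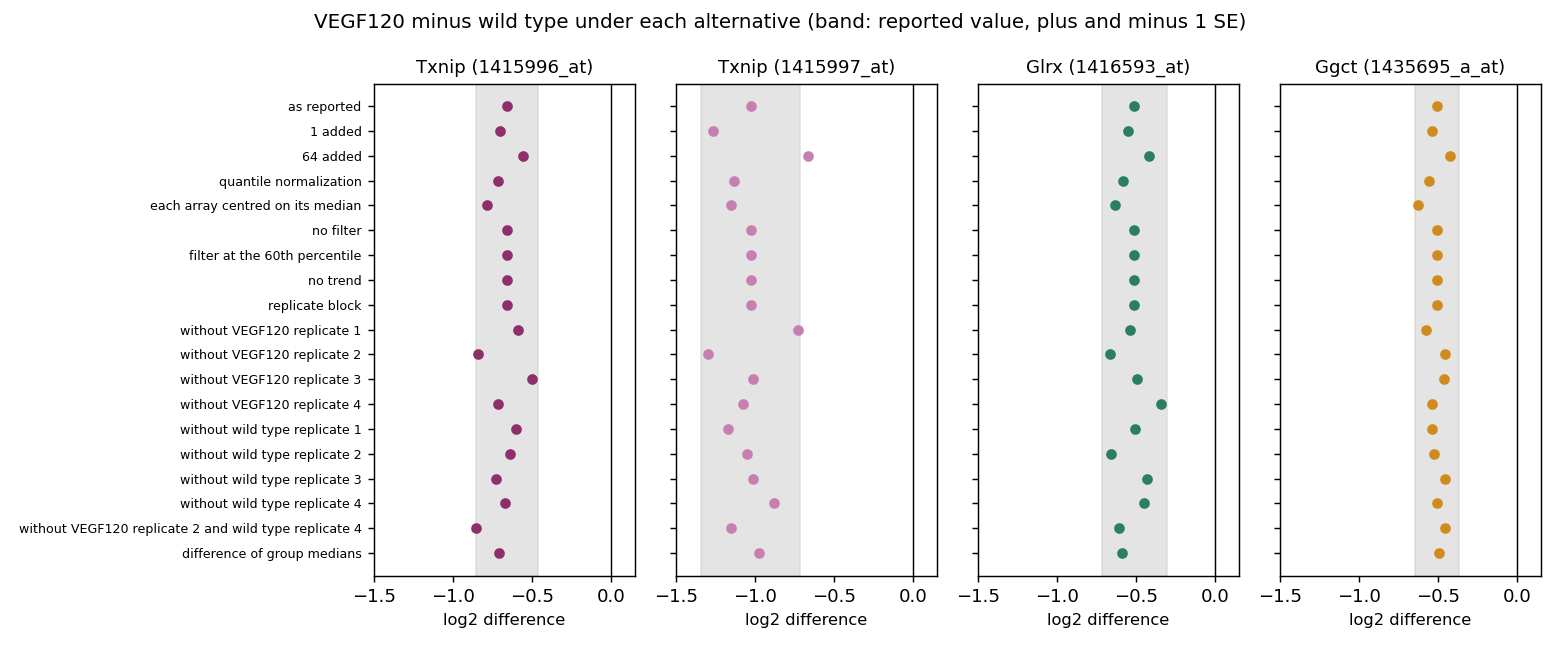
Log2 difference between VEGF120 and wild type (horizontal axis) for each probe set as reported and under each of 18 alternatives (rows), with a grey band for the reported value ± 1 SE. Every point lies below 0, and the widest range is that of the dimmer Txnip probe set, from −1.30 to −0.67.

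Set against the whole array, log2 differences of −0.5 or lower were found for 1.46% of the 27022 probe sets above the brightness filter, and for all 4 of these probe sets. The median difference was −0.59 over the 4 and 0.04 over all 27022. Groups that do not overlap, with VEGF120 lower, occurred in 1.78% of probe sets and in 1 of these 4. The members were selected on this contrast, so these shares are a description and nothing is read from them. Only 0.0962% of probe sets had a lower difference than the dimmer Txnip probe set. For the brighter Txnip probe set, Glrx and Ggct the shares were 0.533%, 1.37% and 1.40% in that order. The SD between arrays of the same genotype was 0.56 for the dimmer Txnip probe set (log2, pooled over the genotypes), at percentile 93.4 of all probe sets. For Ggct it was 0.15, at percentile 16.7, and the median over all probe sets was 0.25.

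Across all probe sets limma called 0 at an adjusted p (Benjamini-Hochberg) under 0.05, which is 0% of the 27022, and 0 of these 4. The smallest adjusted p was 0.465. At an unadjusted p under 0.05 limma called 1714 higher (6.34%) and 924 lower (3.42%), and the methods' unpaired test, run on the same signals, called 1429 higher and 817 lower, and 0 after adjustment. With each array centred on its median the balance turned, to 602 higher and 3099 lower. Without wild type replicate 4 limma called 507 lower, and without wild type replicate 3 it called 509. The median signal ran from 62.3 to 68.5 on VEGF120 arrays and from 56.1 to 59.6 on wild type arrays (p = 0.0286 by two-sided exact permutation, which is the lowest value possible with 4 and 4 arrays; 0.0571 adjusted over 4 array measures). The 4 probe sets were lower, on average, in the genotype with the higher median, and nothing is read from these directions. The first principal component placed VEGF120 replicate 2 at 1.51, the nearest of the VEGF120 arrays to the wild type range of −36.5 to −1.84. The log2 ratio of 3′ to 5′ control signal for beta-actin ran from 0.35 to 0.69 in VEGF120 and from 0.30 to 0.43 in wild type. For Gapdh it ran from −0.33 to −0.04 in VEGF120 and from −0.37 to −0.29 in wild type. By two-sided exact permutation p was 0.286 for beta-actin and 0.143 for Gapdh. VEGF120 replicate 4, the lowest array for Glrx, had the highest value of both ratios. The part of these array differences in the values of Txnip, Glrx and Ggct was not tested.

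The authors' deposited table gives the same contrast from PLIER summaries, another way of combining the probes, after quantile normalization. In that table Txnip was lower by 1.65-fold on the brighter and 2.50-fold on the dimmer probe set, Glrx by 1.68-fold and Ggct by 1.53-fold. The unadjusted p-values of its unpaired test were 0.0165, 0.0020, 0.0292 and 0.00029 in the same order, in the authors' deposited table. The table keeps folds of at least 1.5, and its lowest fold among lower probe sets was 1.502, so Ggct stood just inside that limit. The dimmer Txnip probe set had the highest fold of all 94 lower listed probe sets above the brightness filter in the authors' deposited table, and by MAS5 difference it was in place 3 of the 94. The brighter Txnip probe set took place 41 by the authors' fold and place 26 by MAS5. Glrx took place 37 by the authors' fold and place 48 by MAS5, and Ggct places 73 and 49.

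**Figure D4:**
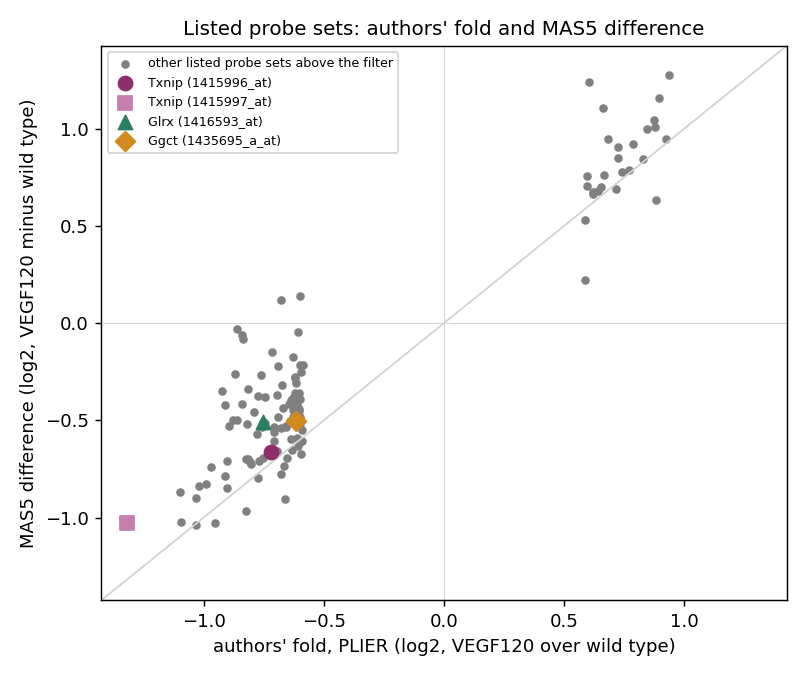
The authors' fold from PLIER (horizontal axis, log2, VEGF120 over wild type) against the MAS5 difference (vertical axis, log2, VEGF120 minus wild type) for the 120 listed probe sets above the brightness filter, with equal values on the grey diagonal. All 4 probe sets of Txnip, Glrx and Ggct lie on the lower left and above the diagonal, so that for each the MAS5 difference was smaller in size than the authors' fold.

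The authors' deposited table also compares another coded group of arrays with the same wild type arrays, and the labels do not say what that group was. Its folds were 1.03 up for the brighter and 1.10 down for the dimmer Txnip probe set, 1.00 up for Glrx and 1.00 down for Ggct in the authors' deposited table. Among the 191 lower listed probe sets the median fold of that comparison was 1.22, and 152 were under 1.5-fold. Both comparisons share the wild type arrays, and an analysis of variance over all 3 groups was part of the selection. No direction is read from the second beyond these values.

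The 3 genes carried different terms in the annotation of the authors' deposited table. Glrx was the one listed probe set of cell redox homeostasis and of glutathione-dependent reductase activity. Txnip carried the terms for oxidative stress, hydrogen peroxide and glucose, and Ggct carried the release of cytochrome c from mitochondria but no redox or glutathione term. A mitochondrial term was attached to 19 listed probe sets, 15 lower and 4 higher, and to all 3 genes, against 191 lower of all 330 listed. The 15 include probe sets of the 3 genes, which were selected as lower. The term was chosen after the values were seen, so nothing is read from this count.

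A term for redox, oxidation reduction, glutathione, oxidative stress or oxidoreductase activity was attached to 11 named probe sets of 10 genes, of which 9 were lower and 2 higher in the authors' deposited table, where 191 of all 330 were lower. Without the Txnip and Glrx probe sets, which were selected as lower, 6 were lower and 2 higher. These terms, and the genes named from them, were chosen after the values were seen. Besides Txnip and Glrx the lower ones included Car3, a carbonic anhydrase of muscle and fat, at a MAS5 log2 signal of 6.95 ± 0.37 in VEGF120 and 7.78 ± 0.49 in wild type (SD, n = 4 each), a difference of −0.83. Cyp20a1, a cytochrome P450, was at 6.30 ± 0.60 in VEGF120 and 6.56 ± 0.33 in wild type, a difference of −0.26. Pam, which amidates neuropeptides, differed by −0.04 and Akr1b10, an aldo-keto reductase, by 0.12 in MAS5 signal. For Cyp20a1, Pam and Akr1b10 the difference was smaller than the larger of the SDs of the 2 genotypes, and for Txnip, Glrx and Car3 it was larger. Cyp1a2, Tmem195, Cyp11b1 and Ddo lay below the brightness filter. Of these Cyp1a2 and Tmem195, both listed lower, differed by 0.19 and −0.76 in MAS5 signal. Cyp11b1 and Ddo, both listed higher, differed by 0.86 and 0.69.

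The partners of these genes could not be placed beside them. Of 126 genes in 8 lists, which cover the thioredoxin system, the regulators of Txnip, other glutaredoxins, the gamma-glutamyl cycle, glutathione peroxidases and transferases, peroxiredoxins, Nrf2 targets and the supply of NADPH, the authors' deposited table names 0. Probe sets outside that table carry no gene name in the files used here, and these genes are not analysed here. The same holds for markers of forebrain, endothelium, erythroid cells, macrophages and surface ectoderm, so the labelled tissue was not checked. Of the head mesenchyme markers 3 of 10 are named, and the others were not examined. Like 139 of the 330 listed probe sets, all 3 named markers were higher in VEGF120. Their log2 signals (SD, n = 4 each) were 9.38 ± 0.32 in VEGF120 and 8.62 ± 0.18 in wild type for Prrx1, 8.40 ± 0.17 in VEGF120 and 7.69 ± 0.27 in wild type for Six2, and 8.33 ± 0.33 in VEGF120 and 7.29 ± 0.54 in wild type for Alx1. The study selected these on the same arrays, and their part in the values of Txnip, Glrx and Ggct was not tested.

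Among the other named probe sets of the list above the filter, those closest in pattern were found by the root mean square distance between log2 signals over the 8 arrays, each centred on its own mean. For the brighter Txnip probe set these included Abcc4, an ABC exporter, at 0.14 and Iqgap1, a scaffold protein of the cytoskeleton, at 0.15, where the median over 96 candidates was 0.47. For Glrx they included Zfand5, a zinc finger protein, at 0.14 and Ptn, the secreted growth factor pleiotrophin, at 0.20. For Ggct they were Hbs1l at 0.10, Il17rd, an inhibitor of FGF signalling, at 0.13 and Ppt1, a lysosomal thioesterase, at 0.16. All those named were lower in VEGF120, as most of the listed probe sets above the filter were.

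No probe set came that close to the dimmer Txnip probe set, for which Iqgap1 was nearest at 0.43, then Sp8 at 0.45 and AK220484 at 0.46, with a median of 0.67. The Txnip probe sets were 0.46 apart from each other, farther than the brighter Txnip probe set was from Glrx, at 0.40, or from Ggct, at 0.36. Glrx and Ggct were 0.35 apart. Each of these distances between members exceeds that from the gene to its own nearest neighbour in the list. Every candidate was selected on the same contrast, so the genotype difference that selected them enters every distance.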

How the data were processed

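Forebrain RNA of 8 samples, 4 VEGF120 and 4 wild type by their titles, was measured on 1-colour Affymetrix arrays. Per the submitters' processing notes, the authors used MAS5 and Affymetrix Expression Console, and the deposited intensity values are linear signals whose 2% trimmed mean is 250 on every array. Versions of these tools: not given in the sources used here. No pair of arrays shared over 0.00444% of values, so each was taken as a sample. Detection calls are absent from the table used, and the number of arrays limits the precision.

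The authors' deposited table holds fold changes (ratios, with their direction apart) and p-values before adjustment. As its headers state, PLIER with quantile normalization was run over 3 coded groups, and probe sets were kept at a fold of 1.5 or more with both p-values, from an unpaired test and an analysis of variance, no higher than 0.05. The heading of the authors' enrichment file names the genotypes compared, from which the codes were read. Its 12 columns of per-array values match no sample label and were not used. Gene names exist for its probe sets only: 251 of 330 have 1 symbol, 13 have several and the rest none.

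From the intensities, log2(signal + 16) was taken, the 64 controls were set aside, and a filter at the 40th percentile of the mean (a signal of 36.9) left 27022 probe sets, all 4 of Txnip, Glrx and Ggct among them. limma 3.58.1 in R 4.3.3 (lmFit, eBayes with an intensity trend, no replicate block) compared VEGF120 with wild type, with Benjamini-Hochberg adjustment at 0.05. Array measures were compared by two-sided exact permutation (scipy 1.17.1). The fit was checked on simulated data. Same-numbered arrays correlated in their deviations from the genotype means at −0.132, −0.025, 0.106 and −0.0558, so the numbers were not taken as pairs.

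The members and lists were chosen with earlier results of these data known. The naming rule takes the 3 genes with all their probe sets, partners and redox lists that the files do not name, and the 3 probe sets most alike to each member, not all of which are reported here. Alternatives changed the added value, the scaling, the filter, the variance trend, the replicate block and the arrays included.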

Additional observations from a re-analysis of the deposited data

Results flagged for a closer look

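Of 18 groups of 4 arrays examined, for the 4 probe sets and 5 array measures in each genotype, a single array stood far from its group, and chance flags 1 in 20 groups, or about 0.9 here. Wild type replicate 4 had a signal of 1047 for the 5′ control of 18S ribosomal RNA, while its group otherwise ranged from 9454 to 11130. No array of Txnip, Glrx or Ggct stood apart in this way. Without wild type replicate 4 alone the log2 differences were −0.67 and −0.88 for Txnip (brighter and dimmer probe set). Those of Glrx and Ggct were −0.45 and −0.51. VEGF120 replicate 2 was not flagged, and it was left out as well in a run chosen after the data were seen. In that run the differences were −0.85 and −1.15 for Txnip, −0.61 for Glrx and −0.46 for Ggct.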

How the results depend on the processing

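The differences of the 4 probe sets stayed below 0 in all 72 values from 18 alternatives each, and none moved by as much as the SD between arrays. With 1 array left out they ranged from −0.84 (without VEGF120 replicate 2) to −0.50 (without VEGF120 replicate 3) for the brighter and from −1.30 to −0.73 for the dimmer Txnip probe set, from −0.66 to −0.34 for Glrx and from −0.57 to −0.45 for Ggct. The filter, the trend and the replicate block leave a difference of means unchanged. The 60th percentile filter removed the dimmer Txnip probe set from the fit, so its value there repeats the reported one and has no SE. Groups that do not overlap cannot turn when an array is left out, so these signs were partly fixed in advance. With 4 arrays per genotype, leaving out 1 array cannot move a difference by as much as that SD. For most alternatives the comparison with the SD could therefore not fail, and nothing is read from it. With the replicate block the SE of the dimmer Txnip probe set was 0.25, and limma called 0 past the adjusted threshold, as without the block. At an unadjusted p under 0.05 limma called 1593 higher and 765 lower with the block, against 1714 and 924 without the block. Probe sets past the adjusted threshold numbered 0 to 1 with an array left out, the 1, a higher one, without VEGF120 replicate 1, so those higher also ranged from 0 to 1. At an unadjusted p under 0.05, leaving out an array gave 507 to 1286 lower, with 507 when wild type replicate 4 and 509 when wild type replicate 3 was missing, and 1144 (without wild type replicate 3) to 1939 higher. Median centring, which removes a difference of 0.12 (log2) in the array medians, gave 602 higher and 3099 lower, and the 60th percentile filter, which tests fewer probe sets, 1137 higher. The difference in median signal ranged from 5.33 to 7.40 and that of the first principal component from 30.3 to 44.4 with an array left out, where 3 against 4 cannot give an exact permutation p under 0.0571. The methods' unpaired test, the medians and the run without 1 array of each genotype were chosen after seeing the data. Alternatives for the redox lists were not run, since no member is named.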
